A study of Homo sapiens with 6 samples.

Results

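The Wnt pathway was examined through 49 genes that encode ligands, receptors, the R-spondin axis, secreted antagonists, beta-catenin with its destruction complex, TCF/LEF transcription factors and feedback targets. Members were taken by name from a list. Where a gene had several probe sets, the brightest on average was used. Of the 49, 46 had a probe set annotated to that gene alone, out of 19775 genes measured. WNT3 and FZD8 share their probe sets with another annotated gene, and TCF7 has none in the annotation used here, so these 3 have no value.

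The study asked how gene expression changes when SF-1, the nuclear receptor encoded by NR5A1, is made in excess. The cells were H295R/TR SF-1, derived from the human adrenocortical carcinoma line H295R so that doxycycline (Dox) switches on SF-1. The 3 Dox arrays were from cells given Dox at 1 µg/mL for 72 h, and the 3 basal arrays from cells kept without it for the same 72 h. Both conditions carry the inducible construct and, being H295R cells, an activated beta-catenin, and both are of 1 subclone. Per the study the 3 arrays of each condition are biological replicates, with no pairing given. The array numbers used here follow accession order within a labelled group and pair nothing. Values are log2 signals, with the SD over the 3 arrays of a group or the SE of a fitted difference. In bulk RNA, fewer cells that use a gene and less of its RNA per cell cannot be told apart.

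The arrays went against their labels in places, and this touches each result below. Dox 1 was nearly identical to basal 1 and Dox 2 to basal 3, with 0 of 54613 probe sets over 2-fold apart in either pair. The SD of the difference was 0.134 in the first of these pairs and 0.149 in the other, against 0.258 to 0.461 between all other arrays. Dox 3 and basal 2 had a narrower spread of values (SD of 2.37 and 2.36) than the 4 other arrays (2.43 to 2.44), and these are called the narrow and the wide array set. NR5A1 had 5.55, 6.21 and 6.41 in Dox 1, 2 and 3, against 5.84, 5.92 and 6.30 in basal 1, 2 and 3, and did not separate the groups (exact permutation p = 1, n = 3 each, where 0.1 is the smallest p possible). Whether any labels were exchanged was not tested, and the sign of every difference given here rests on the labels. Of the adrenocortical markers, STAR (mean level 11.19), CYP11A1 (11.05) and CYP17A1 (8.38) were well expressed, and HSD3B2 (6.22) and NR5A1 (6.04) less so, whereas MC2R (5.49) and INHA (5.18) were not above the levels of olfactory receptor genes. Those genes are not known to be used by adrenocortical cells and serve as a reference for low signal, with a 95th percentile of 5.91 over 82 genes. NR5A1 lay below the 95th percentile of the same array in Dox 1 (5.86), basal 1 (5.89) and basal 2 (6.10). It lay above that percentile in Dox 2 (5.77), Dox 3 (6.04) and basal 3 (5.87). Its signal was thus near the reference for low signal, on either side of it, which makes it a weak check of the labels in both directions.

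The data were therefore compared in a pair of ways. The first sets all 3 Dox arrays against all 3 basal arrays. The other leaves out Dox 1 and basal 3, keeps every remaining label, and sets Dox 2 and Dox 3 against basal 1 and basal 2 with the array set as a block, which leaves 1 residual degree of freedom (n = 2 each). The arrays to leave out were picked on these same data, so the p-values of this comparison cannot serve as independent support. Its SEs rest mostly on a variance pooled over all genes, and little on how far the 2 array sets differ in a given gene. Leaving out basal 1 and Dox 2 instead, which are the other arrays of the nearly identical pairs, gave 0 called members, and so did leaving out the block. The share of all genes called in these settings is not given here. The labels of Dox 1 and basal 1 are worded unlike those of the other arrays. Of the arrays kept, only basal 1 has that wording, so a block for it in place of the array set takes up basal 1. Such a block sets Dox 2 and Dox 3 against basal 2 alone and mixes the array sets, so only its differences are given.

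Wnt ligands are secreted lipid-modified proteins that bind a Frizzled receptor with the co-receptor LRP5 or LRP6. Binding stops the destruction complex of APC, Axin and GSK3B from marking beta-catenin for breakdown, and beta-catenin then acts with TCF/LEF factors on target genes, several of which damp the pathway. R-spondins, through LGR receptors, keep the ligases RNF43 and ZNRF3 from removing Frizzled from the cell surface. In the adrenal cortex this pathway is known for its part in the outer zone and its renewal, and its activation is frequent in adrenocortical carcinoma.

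Sequence upstream of the start site was available from RefSeq (GRCh38.p14) for 32 of the 49 members, and the 250 bases before the start were searched on both strands for CTTTGA or CTTTGT, the core bound by TCF/LEF factors, and for AAGGTCA or CAAGGTC, the core bound by SF-1, 2 words that overlap in AAGGTC. A TCF/LEF core was present in 4 of the 32, namely DKK1, FZD1, RNF43 and SP5 (12.5%, against 22.8% of 35116 promoters), and an SF-1 core in 1, TCF7 (3.12%, against 5.09%). A match is a string of letters and not a shown site. The 3 sequences below are those of RNF43, the member with the largest fall among those with a sequence, and of the ligands WNT4 and WNT5A, which moved in opposite directions. They lie on chromosome 17, 58417535 to 58417784, chromosome 1, 22143098 to 22143347, and chromosome 3, 55487307 to 55487556, all on the minus strand. Capitals mark the TCF/LEF core, which begins 90 bases before the start of RNF43 and is absent from the windows of WNT4 and WNT5A.
RNF43: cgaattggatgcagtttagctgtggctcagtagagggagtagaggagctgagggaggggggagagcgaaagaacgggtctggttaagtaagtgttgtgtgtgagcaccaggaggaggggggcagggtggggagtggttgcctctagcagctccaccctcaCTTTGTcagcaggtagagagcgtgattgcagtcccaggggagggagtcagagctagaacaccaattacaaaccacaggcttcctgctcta
WNT4: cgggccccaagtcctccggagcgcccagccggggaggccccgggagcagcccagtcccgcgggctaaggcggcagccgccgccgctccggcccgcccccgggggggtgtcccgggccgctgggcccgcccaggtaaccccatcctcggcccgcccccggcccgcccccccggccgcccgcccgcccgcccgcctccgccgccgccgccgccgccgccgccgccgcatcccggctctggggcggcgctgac
WNT5A: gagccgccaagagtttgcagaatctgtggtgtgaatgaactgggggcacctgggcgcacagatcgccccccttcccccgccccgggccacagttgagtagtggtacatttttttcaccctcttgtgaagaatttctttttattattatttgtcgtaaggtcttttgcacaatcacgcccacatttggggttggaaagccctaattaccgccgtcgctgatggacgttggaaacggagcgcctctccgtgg

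Of the 46 members, 35 lay above the olfactory receptor reference, as did 12189 of all 19775 genes. So did 1 of 5 endothelial, 1 of 5 blood and 2 of 4 adrenal medulla markers. A level just above the reference therefore does not by itself show expression. The 11 that were not were WNT2B, WNT5B, WNT7A, FZD9, FZD10, RSPO3, SFRP2, SFRP4, FRZB, WIF1 and TCF7L1, and their differences are read as low-signal values. CTNNB1, which encodes beta-catenin, was at 13.41 ± 0.05 in Dox and 13.38 ± 0.05 in basal (SD, n = 3 each).

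**Figure D1:**
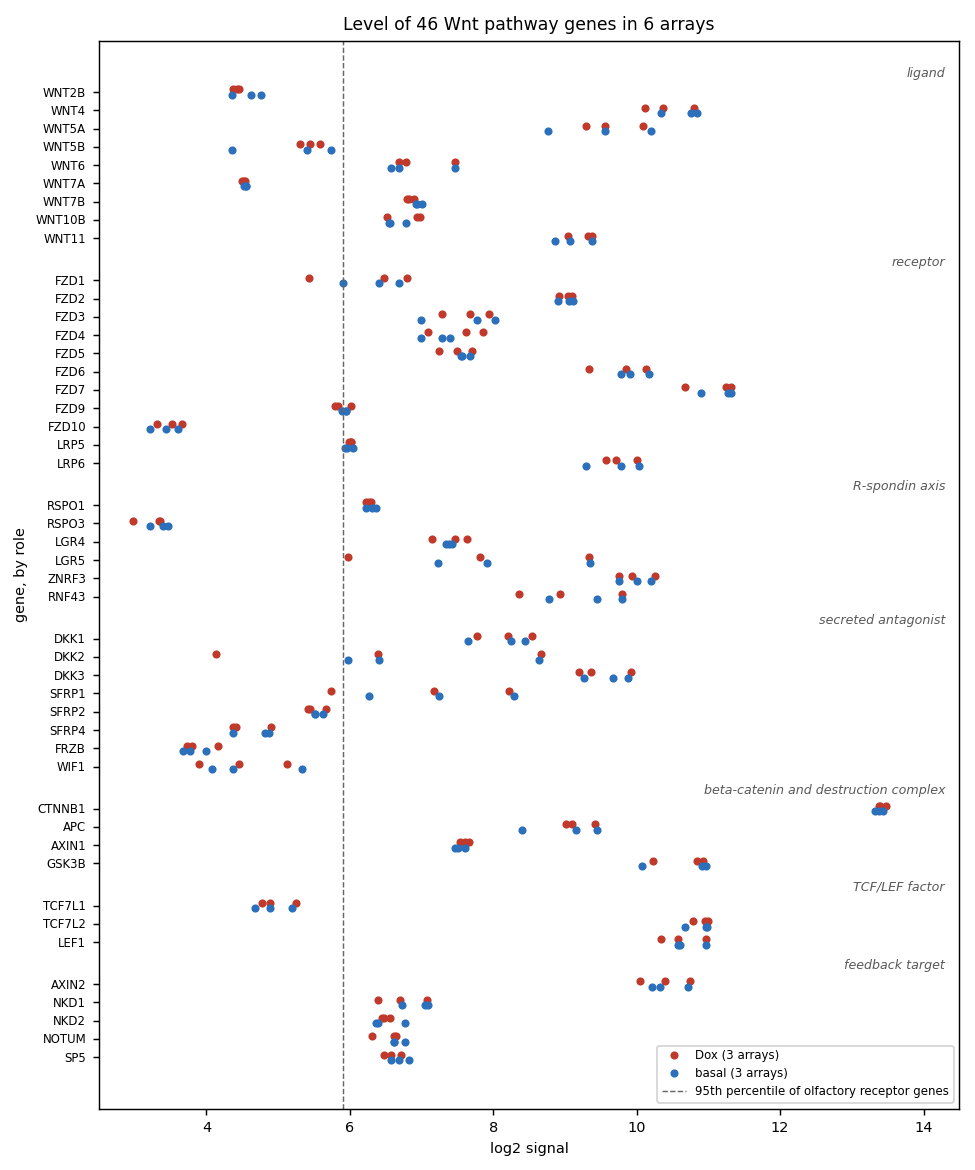
Log2 signal (x axis) of 46 Wnt pathway genes (y axis, by role) in the 3 Dox (red) and 3 basal (blue) arrays, each point an array; the dashed line is the 95th percentile of 82 olfactory receptor genes (5.91). LGR5, DKK2 and SFRP1 spread most widely over the arrays of both groups, and CTNNB1 lies between 13.33 and 13.47.

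Between all 3 Dox and all 3 basal arrays no member passed the threshold. With limma, 0 of 46 members were higher and 0 lower at an adjusted p under 0.05 (background 0% of 19775 genes), the lowest adjusted p was 1, and 0 members had an unadjusted p under 0.05, as did 109 of all genes. The differences ran from -0.61 in DKK2 to 0.30 in FZD4, with a median of -0.02, against a median of 0 over all genes. Exact permutation tests of the 14 members shown array by array gave p from 0.3 to 1 (n = 3 each). The labelled groups did not overlap in 1 of 46 members (background 3.17%), and it was lower in Dox (background 1.68%), with 0 higher (background 1.49%). This was the ligand WNT7B. It had 6.80, 6.89 and 6.83 in Dox 1, 2 and 3, against 6.92, 6.93 and 7.0 in basal 1, 2 and 3, a difference of -0.11 ± 0.10 (SE). Chosen after its values were seen, it is given only because it is the single such member.

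Within array sets, 10 of 46 members passed (21.7%, background 6.99%). Of these, 2 rose, WNT5A and FZD4 (background 3.42%), and 8 fell, DKK2, LGR5, RNF43, SFRP1, WIF1, WNT4, NKD1 and DKK3 (background 3.58%). The median over the members was -0.04, against -0.01 over all genes. Secreted antagonists made up 4 of the 8 that fell and the R-spondin axis 2. The differences of the wide set (Dox 2 and basal 1) and the narrow set (Dox 3 and basal 2) had 1 sign in 32 members (background 60.9%), below 0 in 20 (background 31.7%) and above 0 in 12 (background 29.2%), and opposite signs in 14. The study's own criteria were a 2-fold change and p under 0.05, read here as a p before adjustment. By these, 2 members passed in the 4 arrays kept, DKK2 and LGR5 (background 1.53%). The study compared 3 replicates per condition, and by its criteria it reported genes both raised and lowered on SF-1 overexpression. Over all 6 arrays 0 of 19775 genes met the same criteria here, and the reason for this difference was not tested. In the pair left out, Dox 1 minus basal 3 had the opposite sign in all 10 members that passed, from 0.34 (NKD1) to 2.25 (DKK2) in the 8 that fell, and -0.64 in WNT5A and -0.29 in FZD4. Dox 1 and basal 3 are the arrays nearly identical to basal 1 and Dox 2, in that order. Their difference is thus close to that of the wide set with the sign turned. The opposite signs follow largely from this likeness and are no separate result about the members.

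**Figure D2:**
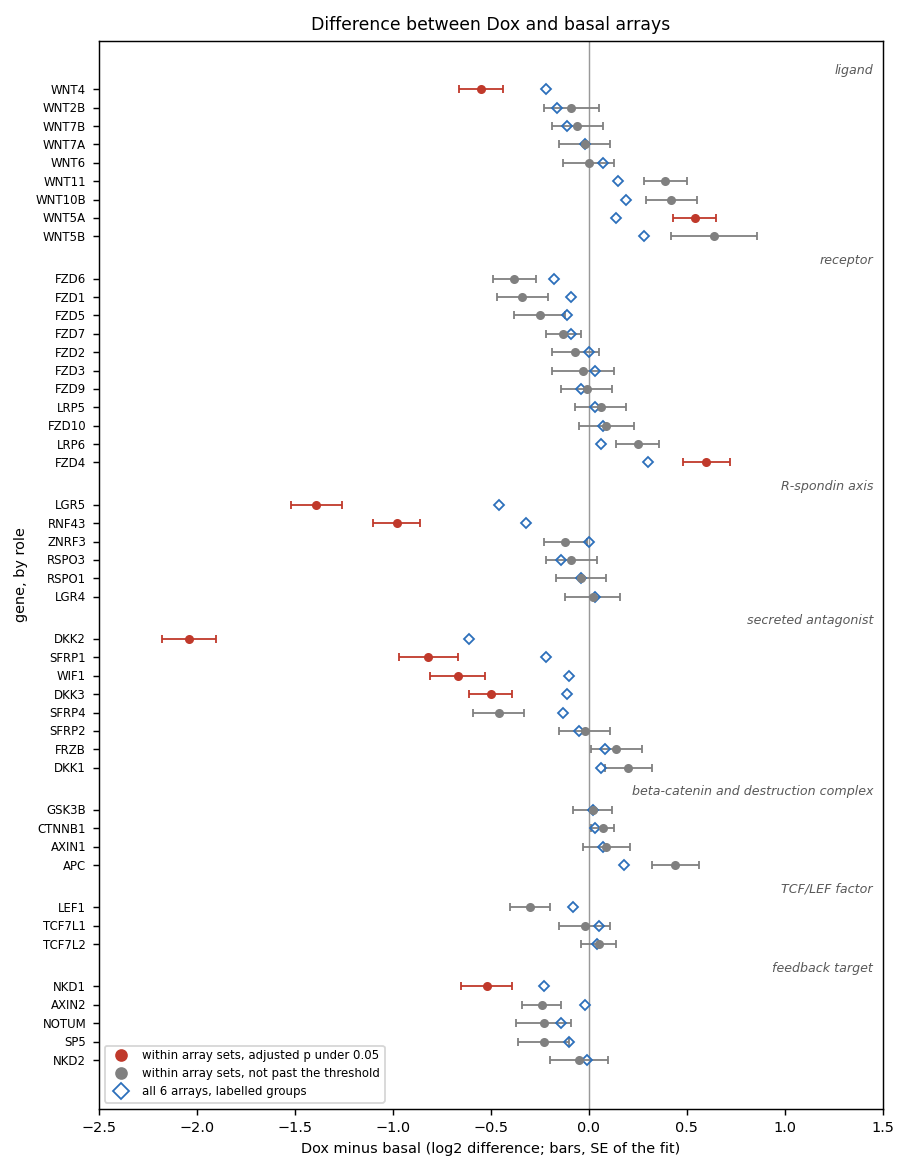
Dox minus basal (x axis, log2 difference) for 46 Wnt pathway genes (y axis, by role); filled points with SE bars are from Dox 2 and 3 against basal 1 and 2 within array sets, red where the adjusted p was under 0.05, and open diamonds are from all 6 arrays. DKK2 lies at -2.04 within array sets and at -0.61 over all 6 arrays.

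Among the secreted antagonists, DKK2 had the largest fall of any member. This Dickkopf protein binds LRP6 and can inhibit or activate the pathway, depending on the cell. It had 8.66, 6.39 and 4.14 in Dox 1, 2 and 3, against 8.64, 5.97 and 6.41 in basal 1, 2 and 3. The groups overlapped: Dox 1 and basal 1 were high, Dox 3 was lowest, and the 3 others lay between 5.97 and 6.41. Within array sets DKK2 fell by 2.04 ± 0.14 on the log2 scale (SE, adjusted p = 7.85e-06 with limma), with -2.25 in the wide and -1.83 in the narrow set. In the narrow set both Dox 3 (4.14) and basal 2 (5.97) lay below the olfactory receptor reference of their own arrays (6.04 and 6.10), so no fold is given. A block for the wording of the labels, which leaves basal 2 as the only basal array compared, gave -0.70.

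SFRP1, a secreted protein with a Frizzled-like domain that binds Wnt ligands, had 8.22, 7.18 and 5.74 in Dox 1, 2 and 3, against 8.29, 6.27 and 7.25 in basal 1, 2 and 3. It shared with DKK2 the high signal in Dox 1 and basal 1 and the low one in Dox 3. Within array sets it changed by -0.82 ± 0.15 (adjusted p = 0.00692), but by -1.11 in the wide and -0.53 in the narrow set, where Dox 3 (5.74) lay below its array's reference. A block for the wording of the labels, which leaves basal 2 as the only basal array compared, gave 0.19 for SFRP1.

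DKK3, a divergent Dickkopf protein, had 9.92, 9.36 and 9.19 in Dox 1, 2 and 3, against 9.88, 9.67 and 9.27 in basal 1, 2 and 3. Its fall within array sets was small and alike in both sets, -0.50 ± 0.11 (adjusted p = 0.0152), with -0.52 and -0.47 in the wide and narrow set. The call was lost with the DKK3 probe set of largest SD (-0.18, adjusted p = 0.711). WIF1, which binds Wnt ligands outside the cell, changed by -0.67 ± 0.14 (adjusted p = 0.0122). Its values were 5.12, 4.46 and 3.89 in Dox 1, 2 and 3, against 5.33, 4.37 and 4.08 in basal 1, 2 and 3. All 6 lay below the reference for low signal.

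The other 4 antagonists did not pass. DKK1, the classical inhibitor of LRP5 and LRP6, was well expressed, at 8.17 ± 0.39 in Dox and 8.12 ± 0.41 in basal (SD, n = 3 each), and differed by 0.20 ± 0.12 within array sets (SE, adjusted p = 0.489). SFRP4 was at -0.46 ± 0.13 (adjusted p = 0.0576), SFRP2 at -0.02 ± 0.13 and FRZB at 0.14 ± 0.13, all 3 of them low-signal genes.

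In the R-spondin axis the falls were in LGR5 and RNF43. LGR5, an R-spondin receptor and a beta-catenin target that marks stem cells of several epithelia, had 9.33, 7.81 and 5.98 in Dox 1, 2 and 3, against 9.35, 7.23 and 7.91 in basal 1, 2 and 3. Dox 3 was the lowest array and Dox 1 and basal 1 the highest, so the groups overlapped. Within array sets LGR5 fell by 1.39 ± 0.13 on the log2 scale (SE, adjusted p = 5.99e-05), with -1.53 in the wide and -1.25 in the narrow set. Dox 3 (5.98) lay just below its array's reference (6.04), and set against that reference LGR5 was at least 2.28-fold lower in Dox in the narrow set. A block for the wording of the labels, which leaves basal 2 as the only basal array compared, gave -0.33.

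RNF43, a membrane ubiquitin ligase that clears Frizzled receptors and is itself a beta-catenin target, had 9.80, 8.93 and 8.36 in Dox 1, 2 and 3. It had 9.80, 9.45 and 8.78 in basal 1, 2 and 3. Of the arrays kept within array sets, both Dox values lay below both basal values. The difference was -0.98 ± 0.12 (SE, adjusted p = 0.000292), or 1.98-fold lower in Dox, with -0.88 in the wide and -1.09 in the narrow set. This is the member whose promoter window holds the TCF/LEF core printed above.

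ZNRF3, the related ligase, whose gene is often lost in adrenocortical carcinoma, did not follow RNF43. It was at 9.98 ± 0.25 in Dox and 9.98 ± 0.23 in basal (SD, n = 3 each), and at -0.12 ± 0.11 within array sets (SE, adjusted p = 0.666). The receptor LGR4 was at 0.02 ± 0.14, with -0.20 in the narrow and 0.25 in the wide set. Of the R-spondins themselves, RSPO1 was at -0.04 ± 0.13, and RSPO3 (-0.09 ± 0.13) was a low-signal gene, between 2.97 and 3.47 in the 6 arrays. None of these 4 passed. The difference between the changes of RNF43 and ZNRF3 was not tested.

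**Figure D3:**
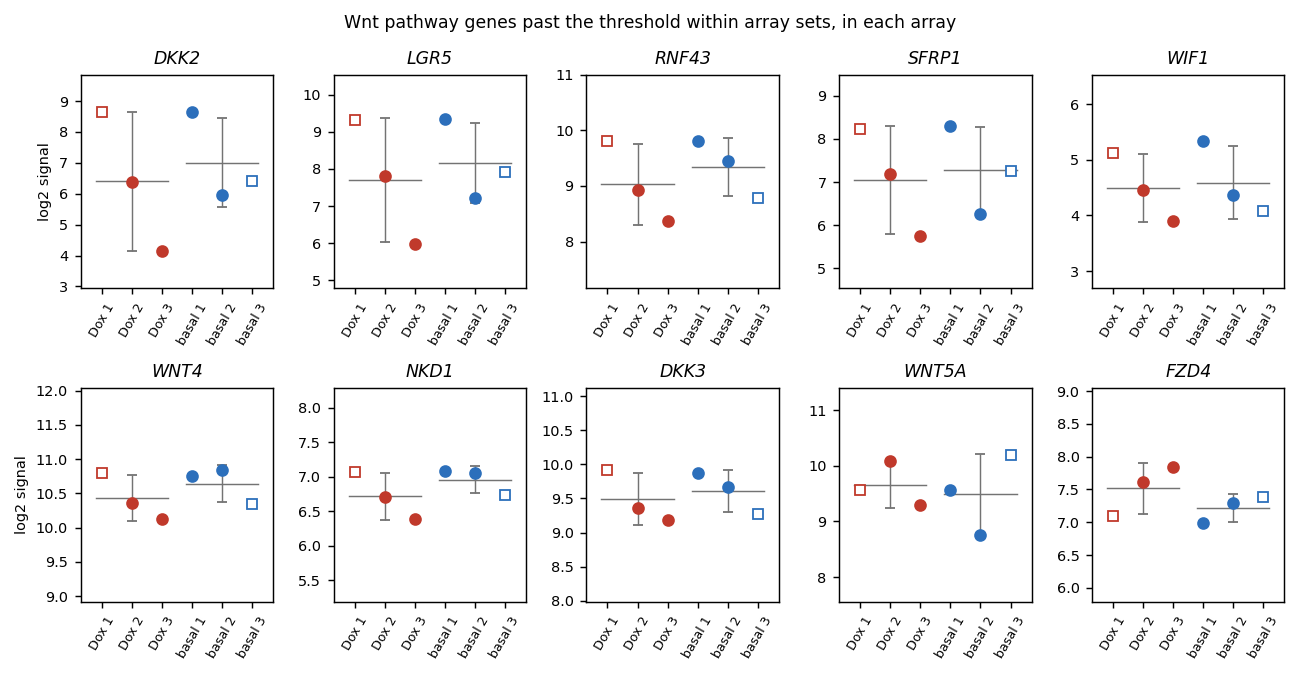
Log2 signal (y axis) of the 10 Wnt pathway genes past the threshold within array sets, in each array (x axis, Dox left of basal); grey lines are the means of the 3 arrays of a labelled group, bars their SD, and open squares mark Dox 1 and basal 3, left out of that comparison. In RNF43, Dox 1 and basal 1 both lie at 9.80, and Dox 2 at 8.93 near basal 3 at 8.78.

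The ligands moved in both directions, with 1 of 9 higher and 1 lower within array sets (backgrounds 3.42% and 3.58%). WNT4, a ligand of the outer adrenal cortex, had 10.80, 10.36 and 10.12 in Dox 1, 2 and 3, against 10.76, 10.84 and 10.34 in basal 1, 2 and 3. The 2 Dox arrays kept lay below the 2 basal arrays kept, and the difference was -0.55 ± 0.11 (SE, adjusted p = 0.00746). Another WNT4 probe set gave -0.46 ± 0.13, and the remaining one, with a mean signal of 6.09, gave 0.14 ± 0.14.

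WNT5A, the best-known ligand of signalling that does not pass through beta-catenin, had 9.56, 10.09 and 9.30 in Dox 1, 2 and 3, against 9.56, 8.76 and 10.20 in basal 1, 2 and 3. Here the array set mattered: in each set the Dox array lay above its basal counterpart, by 0.53 in the wide and 0.55 in the narrow set, while Dox 3 lay below basal 1. The fitted difference was 0.54 ± 0.11 (SE, adjusted p = 0.0103). Its other probe set gave 0.45.

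WNT11 was at 0.39 ± 0.11 (adjusted p = 0.0669) and WNT10B at 0.42 ± 0.13 (adjusted p = 0.0833), neither past the threshold, whereas WNT6 (0.00 ± 0.13) and WNT7B (-0.06 ± 0.13) were near 0. WNT5B, chosen after its values were seen, had the highest difference of all members, 0.64 ± 0.22 (adjusted p = 0.131), which rested on the narrow set (1.24) and not on the wide set (0.04) at low signal. WNT2B and WNT7A lay below the reference, with differences between -0.09 and -0.02.

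Of 11 receptors and co-receptors, 1 passed (9.09%, close to the background of 6.99%), and it rose. FZD4, a Frizzled that binds norrin as well as Wnt ligands, had 7.09, 7.62 and 7.85 in Dox 1, 2 and 3, against 6.99, 7.29 and 7.39 in basal 1, 2 and 3. Dox 2 and Dox 3 were the highest of the 6 arrays, and Dox 1 lay below basal 2 and basal 3. The difference was 0.60 ± 0.12 (SE, adjusted p = 0.0122), with 0.64 in the wide and 0.57 in the narrow set. It was 0.30 ± 0.22 over all 6 arrays.

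The Frizzled genes FZD1, FZD3, FZD5, FZD9 and FZD10 and the co-receptor LRP5 lay between -0.34 and 0.09, and none passed. FZD6 did not pass either (-0.38 ± 0.11, adjusted p = 0.0543), nor did FZD7 (-0.13 ± 0.09) or FZD2 (-0.07 ± 0.12). The co-receptor LRP6 was at 0.25 ± 0.11 (adjusted p = 0.241).

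Of beta-catenin and its destruction complex, 0 of 4 members passed (background 6.99%), with differences from 0.02 to 0.44. CTNNB1 had 13.38, 13.47 and 13.39 in Dox 1, 2 and 3, against 13.38, 13.33 and 13.43 in basal 1, 2 and 3, a difference of 0.07 ± 0.06 within array sets (SE, adjusted p = 0.604). A dimmer CTNNB1 probe set gave 0.40 ± 0.10 and passed in the fit of all probe sets (adjusted p = 0.0293), while the remaining one gave 0.09 ± 0.13. APC, the scaffold of the complex, was at 0.44 ± 0.12 (adjusted p = 0.063), AXIN1, its limiting component, at 0.09 ± 0.12, and the kinase GSK3B at 0.02 ± 0.10.

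Of the TCF/LEF factors, 0 of 3 passed (background 6.99%). LEF1, which is also a target of beta-catenin, had 10.96, 10.57 and 10.34 in Dox 1, 2 and 3, against 10.96, 10.57 and 10.60 in basal 1, 2 and 3. Dox 3 was lowest and Dox 1 and basal 1 equal at the top. Its difference was -0.30 ± 0.10 (SE, adjusted p = 0.0969). TCF7L2 was at 0.05 ± 0.09 and the low-signal TCF7L1 at -0.02 ± 0.13.

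All 5 feedback targets had differences below 0, from -0.52 to -0.05, where 10201 of all 19775 genes were below 0. Of the 5, 1 passed (20%, background 6.99%). NKD2 had opposite signs in the array sets, 0.20 in the wide and -0.30 in the narrow set. The NOTUM difference rested on the narrow set (-0.46). NKD1, which binds Dishevelled and inhibits the pathway, had 7.07, 6.70 and 6.39 in Dox 1, 2 and 3, against 7.09, 7.05 and 6.73 in basal 1, 2 and 3. Among the arrays kept, both Dox values lay below both basal values. The change was -0.52 ± 0.13 (SE, adjusted p = 0.0366), with -0.39 in the wide and -0.65 in the narrow set, and a further probe set gave -0.53 ± 0.14.

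AXIN2, the most widely used readout of beta-catenin activity, had 10.75, 10.39 and 10.04 in Dox 1, 2 and 3, against 10.71, 10.21 and 10.33 in basal 1, 2 and 3. Dox 2 lay above basal 2, so the arrays kept overlapped. Its difference was -0.24 ± 0.10 (SE, adjusted p = 0.218). NOTUM, an enzyme that strips the lipid from Wnt ligands, had 6.65, 6.61 and 6.31 in Dox 1, 2 and 3, against 6.61, 6.77 and 6.62 in basal 1, 2 and 3, and only Dox 3 stood apart. It differed by -0.23 ± 0.14 (adjusted p = 0.488). The transcription factor SP5 was at -0.23 ± 0.13 (adjusted p = 0.419) and NKD2 at -0.05 ± 0.15.

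**Figure D4:**
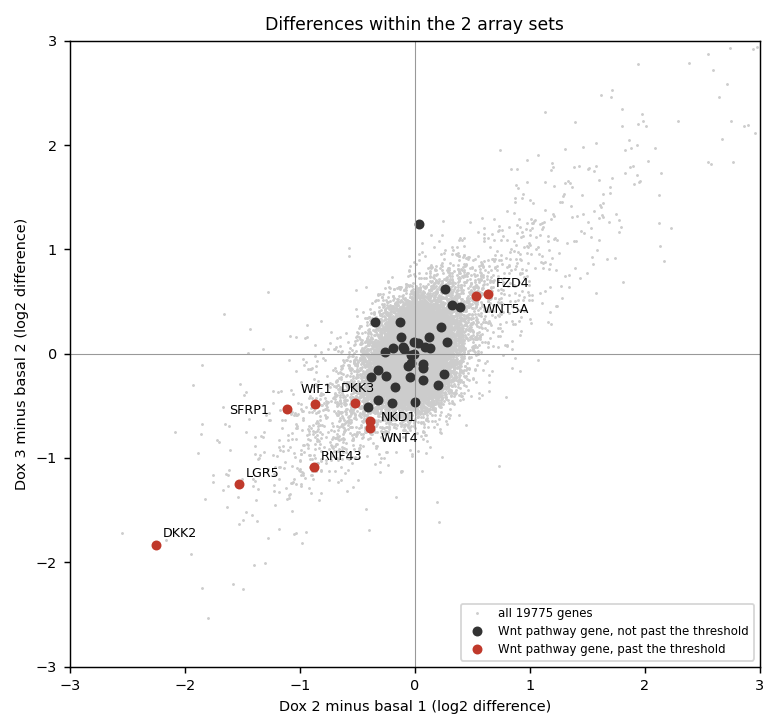
Dox 3 minus basal 2 (y axis, narrow set) against Dox 2 minus basal 1 (x axis, wide set), as log2 differences, with 46 Wnt pathway genes over all 19775 genes (grey), 8 of which fall outside the axes; red marks members past the threshold within array sets. DKK2 lies at -2.25 and -1.83 and FZD4 at 0.64 and 0.57, and the black point near the top is WNT5B (0.04 and 1.24).

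Of the members that passed, DKK2, LGR5, SFRP1, WNT5A and WIF1 had a larger difference between the array sets than between Dox and basal. In the same fit DKK2, LGR5 and SFRP1 were higher in the wide set by 2.46, 1.97 and 1.73 in that order, and these 3 were the members over 1 in size (6.52%, background 2.25%). WNT5A was higher there by 0.79, WIF1 by 0.76 and RNF43 by 0.47, and DKK3, NKD1, WNT4 and FZD4 lay between -0.26 and 0.19. COL3A1, a fibrillar collagen listed as a fibroblast marker, moved with the first 3. It had 8.74, 7.08 and 5.47 in Dox 1, 2 and 3, against 8.75, 5.98 and 7.09 in basal 1, 2 and 3. Within array sets it changed by -1.09 ± 0.22 on the log2 scale (SE, adjusted p = 0.00924), with -1.67 in the wide and -0.51 in the narrow set. In the narrow set both Dox 3 and basal 2 lay below the olfactory receptor reference of their own arrays (6.04 and 6.10).

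COL3A1 was the 1 of 6 fibroblast markers that passed (background 6.99%). Of the others, COL1A1 (mean 7.91) and PDGFRB (5.95) lay above the reference for low signal, with differences of -0.02 ± 0.14 and 0.03 ± 0.13, and COL1A2 (4.31), DCN (5.85) and LUM (3.40) did not. The summed linear signal of the 6 was 472 to 781 in Dox and 500 to 784 in basal arrays. None of 5 endothelial, 5 blood and 4 adrenal medulla markers passed (background 6.99%), and these lists are too short to tell none from that share. Their sums were 154 to 169, 196 to 223 and 209 to 239 in Dox, against 152 to 169, 206 to 214 and 220 to 248 in basal arrays, in that order of lists. The part of other cells in these results was not tested.

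Of 7 adrenocortical markers measured, 2 fell within array sets (background 3.58%) and 0 rose (background 3.42%). STAR, which carries cholesterol into mitochondria, changed by -0.54 ± 0.09 (SE, adjusted p = 0.00226). The steroidogenic enzyme HSD3B2 changed by -1.40 ± 0.18 (adjusted p = 0.000513), with -0.98 in the wide and -1.82 in the narrow set. HSD3B2 was at low signal in the Dox arrays kept: Dox 2 (5.51) lay below its array's reference (5.77), and Dox 3 (6.07) close to its own (6.04). NR5A1 itself was at 0.43 ± 0.13 (adjusted p = 0.0808), CYP11A1 at 0.30 ± 0.09 (adjusted p = 0.0643) and CYP17A1 at -0.44 ± 0.12 (adjusted p = 0.0603), none past the threshold. The summed linear signal of the 7 was 4453 to 6269 in Dox and 4224 to 6846 in basal arrays.

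Other genes of the pathway, from a list of 60 of which 57 had a probe set of their own, included 6 that passed within array sets (10.5%, background 6.99%), 2 higher (background 3.42%) and 4 lower (background 3.58%). Both ROR receptors, tyrosine kinases that bind WNT5A, fell. ROR1 had 6.77, 5.59 and 5.43 in Dox 1, 2 and 3, against 6.96, 6.83 and 5.54 in basal 1, 2 and 3, and changed by -1.39 ± 0.13 (SE, adjusted p = 4.99e-05). Dox 2, Dox 3 and basal 3 lay below the reference for low signal, and set against the references of Dox 2 and Dox 3 it was at least 1.99-fold lower in Dox. ROR2 changed by -0.81 ± 0.14 (adjusted p = 0.00386).

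TNFRSF19, a receptor known as a beta-catenin target, had 11.61, 10.69 and 10.10 in Dox 1, 2 and 3, against 11.58, 11.26 and 10.67 in basal 1, 2 and 3. It changed by -1.03 ± 0.10 (SE, adjusted p = 6.53e-05), and both Dox arrays kept lay below both basal ones. APCDD1, a membrane inhibitor and target of the pathway, changed by -0.40 ± 0.10 (adjusted p = 0.0295). The genes of this wider list that rose were the glypican GPC4 (0.87 ± 0.14, adjusted p = 0.00243) and the TLE family corepressor TLE3 (0.64 ± 0.14, adjusted p = 0.0176). The targets MYC (0.09 ± 0.13) and CCND1 (0.17 ± 0.13, low signal) did not pass, nor did the Dishevelled genes DVL1, DVL2 and DVL3, which lay between -0.21 and 0.07. In the labelled groups 0 of these 57 genes passed.

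Probe sets of a gene did not always move alike. The second LGR5 probe set gave -0.20, that of DKK2 -0.01 and that of FZD4 0.01, and the 3 others of SFRP1 -0.10 to 0.03, all of them below the reference for low signal. For DKK3 the 5 others ran from -0.46 to 0.03, with 2 of them above that reference. RNF43 and WIF1 have 1 probe set each.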

How the data were processed

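Total RNA of 6 cultures was hybridised to Affymetrix human arrays. The deposited values are log2 signals of probe sets, which the authors made with GCRMA according to the submitters' notes, which give no version. Affymetrix Command Console and Expression Console are named in the study's methods. Whether the 6 arrays were normalized together is not given in the sources used here. Medians of the arrays lay between 5.56 and 5.6, so no further scaling was applied. GEO's platform annotation gave 1 gene symbol to 41091 of 54613 probe sets, several to 1801 and none to 11721.

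All 19775 genes were fitted with limma 3.58.1 (lmFit, eBayes with a variance trend) under R 4.3.3, with Benjamini-Hochberg adjustment over all of them and a threshold of 0.05, two-sided. NR5A1 and the 14 members shown array by array were also given an exact permutation test over the labelled groups. Where only the Dox arrays lay below the olfactory receptor reference, a fold is given as a bound, basal signal over the higher of that reference and the Dox signal. The fits were tested on simulated data with correct labels and independent noise. Those data hold no nearly identical arrays of opposite label, so that test does not bear on the choice of arrays left out. The members, the lists and the arrays left out were chosen with earlier results of these data known. Values in every array are given for members past the threshold, those with a difference of at least 1 within array sets, and CTNNB1, AXIN2, LEF1, NKD1, NOTUM and WNT4. In each role up to 4 others with the highest mean signal are given by value. Nothing shows that the arrays came from separate experiments beyond the study's statement, so p-values bear on these arrays alone. Within array sets, with 1 residual degree of freedom, the SEs and p-values rest mostly on a variance that limma pools over all genes. The file holds no detection calls, and precision is limited by having few arrays. Alternatives covered the variance model, normalization, a filter on low genes, the choice of probe set, the study's thresholds, blocks and arrays left out. Figures were drawn with matplotlib 3.10.9.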

Additional observations from a re-analysis of the deposited data

How the results depend on the processing

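In the labelled comparison 0 members passed under each alternative run, including leaving out any 1 array. The share of all genes called under these alternatives is not given, apart from 0% by the study's thresholds. The differences of single members there turned sign in places, always short of the threshold. In the 4 wide arrays alone, WNT4 was at 0.03, WNT5A at -0.06, RNF43 at 0.07, DKK3 at 0.06, WIF1 at 0.08, AXIN2 at 0.05 and NOTUM at 0.01, and with the probe set of largest SD, WNT4 was at 0.12 and DKK3 at 0.05. Leaving out 1 array at a time gave -1.74 to 0.52 in DKK2, -1.27 to 0.41 in LGR5, -0.70 to 0.02 in RNF43, -0.81 to 0.43 in SFRP1, -0.42 to 0.26 in WIF1, -0.33 to 0.04 in DKK3, -0.23 to 0.49 in WNT5A, -0.25 to 0.06 in LEF1 and -0.20 to 0.15 in AXIN2. The lowest values of DKK2, LGR5, RNF43 and SFRP1 were those without Dox 1, and their highest those without Dox 3. The NR5A1 difference was 0.03, and -0.14 to 0.29 with 1 array left out.

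Within array sets, 10 to 13 members passed under another variance model, quantile normalization, a filter on low genes, all probe sets or the probe set of largest SD. The share of all genes that passed is given for the main setting (6.99%) and the study's thresholds (1.53%) only. The counts under the other settings therefore have no background, and do not show whether the members stood apart there. The count was 2 by the study's own thresholds, 0 without the block and 0 with basal 1 and Dox 2 left out in place of Dox 1 and basal 3. That last setting, like the main one, keeps 1 array of each nearly identical pair of opposite label. Its wide-set difference, Dox 1 minus basal 3, is thus close to that of the main setting with the sign turned. This setting turned WNT5A to -0.05, LGR5 to 0.08, DKK2 to 0.21 and DKK3 to 0.09. SFRP1 turned to 0.22, WIF1 to 0.28, LEF1 to 0.07 and AXIN2 to 0.13. The wording of the labels as the block sets Dox 2 and Dox 3 against basal 2 alone, so it gives values only. With it SFRP1 was at 0.19, AXIN2 at 0.01, DKK2 at -0.70, LGR5 at -0.33, WIF1 at -0.20 and WNT5A at 0.94. With the probe set of largest SD WNT4 was at 0.14 and DKK3 at -0.18 (adjusted p = 0.711), while CTNNB1 was called at 0.40 (adjusted p = 0.0109). Leaving out 1 of the 4 arrays leaves no residual degree of freedom, so it gives values only, as in DKK2 (-2.25 to -1.83) and NOTUM (-0.46 to 0). Low signal limits WIF1, WNT5B, SFRP4 and the lowest arrays of DKK2, LGR5 and SFRP1.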
